A study of Mus musculus with 12 samples.

Results

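The genes described here encode the enzymes and carriers of the glutathione, peroxiredoxin and thioredoxin systems. They were chosen by symbol alone: glutathione S-transferases of the cytosolic, kappa and microsomal families, glutathione peroxidases, peroxiredoxins, thioredoxins, thioredoxin reductases, numbered thioredoxin-domain (Txndc) genes, and the enzymes that make or reduce glutathione, Gclc, Gclm, Gss and Gsr. On these arrays 52 such genes had a probe set of their own, of 18193 genes in all. Each was read from the probe set with the highest mean over the 12 arrays. Of the 52, 49 were bright enough on at least 3 arrays to be tested, and Gpx5, Gsta2 and Gstp3 were not. The study measured messenger RNA in mouse germ cells from male animals and in germ-cell-like cells made in culture, with 3 arrays in each of 4 groups. Primordial germ cells (PGC), the fetal founders of the germ line, came from the genital ridge of male BDF1 fetuses at E12.5, and PGC-like cells (PGCLC) were made in culture and taken at day 6. Round spermatids (RS), the haploid cells that follow meiosis, came from the testis of BDF1 males at 3 weeks, and spermatid-like cells (SLC) were made in culture. All cells were sorted by FACS, with the gate not given in the sources used here, and the same sources do not give the cell line or culture steps behind the 2 groups made in vitro. Titles call the arrays of a group biological replicates, with no animal or culture named. P-values thus measure the spread between these samples, pooled for each gene over the 4 groups, which were not equally spread. The median SD of log2 values of the 49 genes was 0.10 in PGC, 0.31 in PGCLC, 0.13 in RS and 0.092 in SLC.

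Glutathione is a small thiol that cells make from glutamate, cysteine and glycine. Glutamate-cysteine ligase (Gclc, with its modifier Gclm) and glutathione synthetase (Gss) build it, glutathione peroxidases spend it on peroxides, glutathione S-transferases join it to reactive compounds, and glutathione reductase (Gsr) restores it with NADPH. Thioredoxins carry electrons from thioredoxin reductases to peroxiredoxins and to oxidised proteins. Male germ cells are known for their own versions of these proteins: the spermatid thioredoxins Txndc2 and Txndc8, the reductase Txnrd3, the transferase Gstm5, and Gpx4, a selenoprotein that reduces lipid peroxides and later forms part of the sperm midpiece.

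The cell type of each group was checked against 9 marker lists. Spermatid markers summed to between 187698 and 198905 intensity units in RS and between 139376 and 145394 in SLC, against at most 366 in PGC and PGCLC, and PGC markers summed to between 66395 and 69935 in PGC and between 29860 and 60590 in PGCLC. Spermatocyte markers summed to between 57343 and 61098 in RS and between 41662 and 43151 in SLC. Their sums were between 5238 and 5842 in PGC and between 2302 and 4457 in PGCLC. The part of spermatocytes in the RS and SLC values was not tested. Markers of supporting cells were present too. Connective tissue markers summed to between 95755 and 97123 in SLC and between 2666 and 3225 in RS, Leydig cell markers to between 7677 and 8090 in SLC and between 222 and 331 in RS, and Sertoli cell markers to between 11369 and 12266 in PGC, 7194 and 7226 in SLC, and 994 and 1561 in RS. Array medians lay between 73.2 and 107 units. The log2 ratio of 3' to 5' Gapdh control probes was −0.0083 to 0.20 in RS and −0.56 to −0.29 in the other 3 groups. The PGCLC arrays stood furthest apart, with correlations among themselves of 0.914 to 0.976, against 0.977 to 0.988 within the other groups. In such bulk samples fewer cells of a type and less RNA per cell cannot be told apart.

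**Figure D1:**
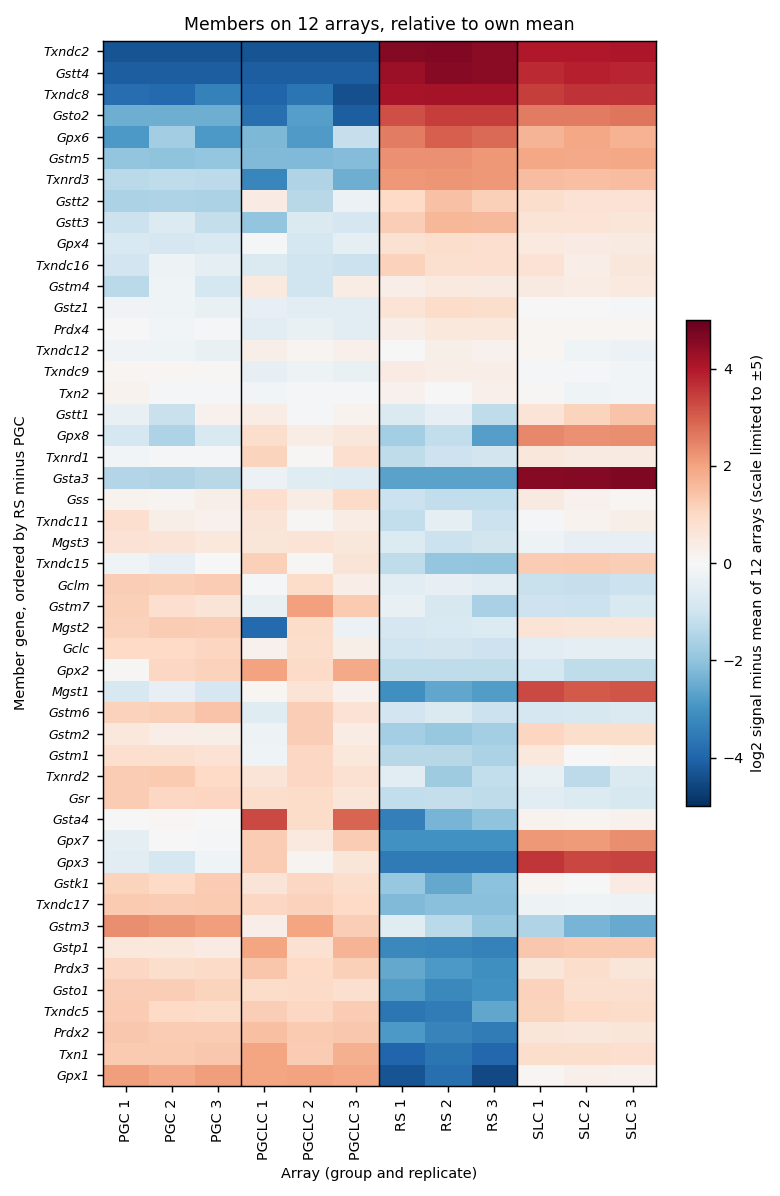
Log2 signal of each of the 49 tested members on each of the 12 arrays, minus that gene's mean over the arrays, with genes in rows by their change from PGC to RS and arrays in columns by group. Txndc2, Txndc8, Gstt4, Gsto2, Gpx6, Gstm5 and Txnrd3 are high in all RS and SLC arrays, and Gpx1, Txn1, Prdx2, Prdx3 and Txndc5 are lowest in the 3 RS arrays.

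The first comparison asked how the 2 stages taken from animals differ. Most of the system was lower in round spermatids than in PGCs, while a small set of germ-line members was far higher. With a gene counted as called when limma's Benjamini-Hochberg adjusted p over all 14197 genes tested was below 0.05 and the change reached 2-fold, 28 of 49 members fell (57.1%, against 37.7% of all genes) and 13 rose (26.5%, against 31.8%). In either direction 69.5% of all genes were called, and 8 members were called in neither. The median log2 change of the 49 was −1.52, against −0.23 over all genes. Among members with no array at the floor in either group, the falls ran from −1.37 for Gss to −6.23 for Gpx1, and the rises from 1.09 for Gstz1 to 7.84 for Txndc8. Of the marker lists, 3 of 8 tested Sertoli markers fell, and of 4 tested erythroid markers 3 fell and Epor rose, the erythroid list summing to between 12315 and 13138 in PGC and between 291 and 532 in RS. Connective tissue markers fell in 4 and rose in 2 of 11, Leydig markers fell in 2 of 5 tested, and endothelial markers fell in 2 and rose in 2 of 6 tested. Macrophage markers rose in 5 of 6 tested, to sums of 1102 to 1330 in RS from 264 to 276 in PGC. Spermatocyte markers rose in 5 of 8 tested. The part of such cells in the changes was not tested.

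Among the thioredoxins the spermatid forms rose and the general cytosolic form fell. Txndc2, a thioredoxin of the spermatid tail, gave 25.1, 19.6 and 6.23 units on the 3 PGC arrays and 9.41, 3.46 and 3.35 in PGCLC, all below the floor of 30.7 units used for log2 values. It gave 14715, 15001 and 13969.7 in RS and 9801, 9728 and 9882 in SLC. All 6 spermatid-stage arrays were high and none of the other 6 was above the floor. The rise from PGC to RS was at least 473-fold (log2 change 8.89, SE 0.09, adjusted p = 6.64e-15).

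Txndc8, another spermatid thioredoxin, read 46.0, 44.0 and 61.6 in PGC, 40.0, 51.1 and 6.64 in PGCLC, 11250.1, 11537 and 11555 in RS, and 7032, 7896 and 7988 in SLC. Its rise was 229-fold (log2 change 7.84, SE 0.18, adjusted p = 2.29e-12). Txn1, the general cytosolic thioredoxin, ran the other way. It read 10881, 10634 and 10942 in PGC, 16989, 10368 and 14852 in PGCLC, 281, 347 and 284 in RS, and 7946, 7948 and 7764 in SLC. The RS arrays were thus the 3 low ones of 12, and the fall from PGC was 35.8-fold (log2 change −5.16, SE 0.15, adjusted p = 1.48e-11). A second, dim Txn1 probe set, with group means of 63.4 to 149 units, had a log2 difference of 1.12 in the same comparison.

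Txndc8 and Txn1 are neighbours on chromosome 4 with no coding gene between them in RefSeq's annotation of GRCm38.p6, so this pair with opposite changes shares a locus. Their promoters, the 250 bases before the most upstream RefSeq start, are shown to set the 2 side by side. Txndc8 lies at chr4:58009127-58009376 and Txn1 at chr4:57956412-57956661, both on the minus strand, 5′ to 3′. Neither holds any motif searched, so no letter is in capitals.
Txndc8: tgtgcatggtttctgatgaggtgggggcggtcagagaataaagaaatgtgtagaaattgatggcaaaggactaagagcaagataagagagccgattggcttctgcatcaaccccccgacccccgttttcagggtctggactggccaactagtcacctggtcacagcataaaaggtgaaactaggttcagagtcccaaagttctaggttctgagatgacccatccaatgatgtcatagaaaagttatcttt
Txn1: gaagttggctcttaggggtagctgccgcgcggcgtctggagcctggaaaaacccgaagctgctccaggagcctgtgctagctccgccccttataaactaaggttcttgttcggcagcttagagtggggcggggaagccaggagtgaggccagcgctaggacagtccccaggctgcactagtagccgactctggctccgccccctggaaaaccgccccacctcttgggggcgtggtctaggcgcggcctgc

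Txn2, the mitochondrial thioredoxin, stayed between 859 and 1189.6 units on all 12 arrays, and its RS values of 1144, 1002 and 1189.6 overlapped the PGC values of 1114, 956 and 947 (log2 change 0.14, SE 0.11, adjusted p = 0.244). The reductases that feed the thioredoxins differed by form. Txnrd3, the form known from the testis, read 1296, 1395 and 1339 in PGC, 347, 1179 and 620.4 in PGCLC, 15035, 15307 and 14879 in RS, and 9816, 9375 and 9629 in SLC. It rose 11.2-fold from PGC to RS (log2 change 3.49, SE 0.31, adjusted p = 4.37e-07). Its 2 other probe sets gave log2 differences of 3.97 and 3.99. Txnrd2, the mitochondrial reductase, fell by 2.37 on the log2 scale, and cytosolic Txnrd1 was lower by 0.99, just short of 2-fold (adjusted p = 0.000831).

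The Txndc genes, which carry thioredoxin folds in different compartments, split 3 up, 4 down and 2 uncalled. Txndc16 rose (log2 change 1.49), and Txndc5, Txndc17, Txndc11 and Txndc15 fell. Txndc5, a protein disulfide isomerase of the endoplasmic reticulum, read 1351, 1114 and 1064 in PGC, 1316, 1144 and 1367 in PGCLC, 46.1, 49.4 and 92.3 in RS, and 1212, 1133 and 1054 in SLC. Again only the RS arrays were low, and the fall was 19.7-fold (log2 change −4.30, SE 0.23, adjusted p = 3.5e-09). Txndc9 and Txndc12 were uncalled, at log2 differences of 0.28 and 0.44.

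Of the peroxiredoxins, thiol peroxidases recharged by thioredoxin, 3 had a probe set of their own and 2 of these fell. Prdx2, an abundant cytosolic form, read 7819, 7472 and 7476 in PGC, 8788, 7635 and 7848 in PGCLC, 420.4, 307 and 273 in RS, and 4733, 4569 and 4671 in SLC. It fell 23.2-fold from PGC to RS (log2 change −4.53, SE 0.13, adjusted p = 1.46e-11). Prdx3, the mitochondrial form, fell 13.8-fold (log2 change −3.79, SE 0.15, adjusted p = 2.24e-10). Prdx4, the form of the endoplasmic reticulum, was not called. It read 6963, 6417 and 6865 in PGC, 4878, 5487 and 4839.7 in PGCLC, 9001, 10167 and 10227 in RS, and 7618, 7594 and 7703 in SLC. Its RS arrays were the highest of the 12, at a log2 difference of 0.54 from PGC (SE 0.07, adjusted p = 1.67e-05), short of 2-fold. Its 3 other probe sets gave 0.89, 0.88 and −2.29.

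The glutathione peroxidases, 7 of which were tested, gave 2 rises and 4 falls. Gpx4 was bright everywhere, at 8237, 7929 and 8287 in PGC, 13282, 7596 and 9949.5 in PGCLC, 23944, 26079.9 and 25527 in RS, and 19625, 18571 and 19300.3 in SLC. The spermatid-stage arrays were the 6 highest. Its rise from PGC to RS was 3.09-fold (log2 change 1.63, SE 0.15, adjusted p = 5.05e-07), and its second probe set gave a log2 difference of 1.94. Gpx6, a relative of Gpx5, read 4.39, 67.4 and 25.2 in PGC, 47.5, 32.1 and 102 in PGCLC, 1335, 1805 and 1621 in RS, and 737, 872 and 759 in SLC, a rise of at least 39.4-fold from PGC to RS (log2 change 5.30, SE 0.40, adjusted p = 9.49e-08). Gpx5, known as the secreted peroxidase of the epididymis and next to Gpx6 on chromosome 13, lay between 5.62 and 87.6 units on the 12 arrays, below the filter level of 92.0 on each, and was not tested.

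Gpx1, the general cytosolic peroxidase, had the largest fall of all members. It read 12713, 11106 and 12528 in PGC, 11582, 12044 and 11308 in PGCLC, 148, 217 and 130.1 in RS, and 3189, 3484 and 3393 in SLC. The fall from PGC to RS was 75-fold (log2 change −6.23, SE 0.15, adjusted p = 3.14e-12). Gpx2, the epithelial form, read 77.1, 152 and 165 in PGC, 293, 141 and 273 in PGCLC, 22.1, 21.8 and 16.7 in RS, and 39.9, 10.7 and 10.6 in SLC, with all RS arrays and 2 of the SLC arrays under the floor (fall of at least 4.04-fold from PGC to RS, adjusted p = 0.000154). Gpx3 and Gpx7 also fell to below the floor, by at least 8.01-fold and 7.28-fold. Gpx8 was lower by 0.83 on the log2 scale, with arrays of the 2 groups overlapping and no call.

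All 4 enzymes that make or reduce glutathione were lower in spermatids. Gclc, the catalytic subunit of the ligase, read 1893, 1898 and 1965 in PGC, 1103, 1714 and 1145 in PGCLC, 479, 506 and 459 in RS, and 651, 678 and 670.1 in SLC, a 3.99-fold fall from PGC to RS (log2 change −2.00, SE 0.15, adjusted p = 7.78e-08). Gclm, the modifier subunit, read 3035, 2967 and 3125 in PGC, 1219, 2442 and 1609 in PGCLC, 869, 981 and 888 in RS, and 589.5, 583 and 619 in SLC, and fell 3.34-fold (log2 change −1.74, SE 0.19, adjusted p = 3.41e-06). For both subunits every PGC array was above every other array.

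Gss, the second enzyme of the synthesis, read 475, 467 and 512 in PGC, 759, 539.9 and 811 in PGCLC, 203, 179 and 181 in RS, and 578, 487 and 452 in SLC. Its fall from PGC to RS was 2.59-fold (log2 change −1.37, SE 0.17, adjusted p = 8.39e-06), and with the mean of its 2 probe sets it was −0.91, short of 2-fold. Gsr, the reductase that recycles oxidised glutathione, read 2793, 2434 and 2482 in PGC, 2128, 2229 and 1766 in PGCLC, 495, 506 and 482 in RS, and 794, 736 and 673 in SLC. It fell 5.19-fold (log2 change −2.38, SE 0.11, adjusted p = 1.11e-09), with no overlap between the groups.

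Among the glutathione S-transferases some forms rose and others fell. Of 17 cytosolic members tested 7 rose and 9 fell from PGC to RS. The theta family rose in 3 of 4 (Gstt2, Gstt3 and Gstt4), both tested alpha members fell, and the mu family gave 2 rises and 5 falls. The alpha member Gsta3 fell from only 68.9 to 74.9 units in PGC, below the filter level of 92.0, to below the floor. Its second probe set had a log2 difference of −0.10, and its call was lost with the mean of its probe sets. Gstt4 read 7.91, 27.7 and 4.92 in PGC, 3.59, 11.8 and 10 in PGCLC, 10262, 12632 and 12085 in RS, and 7054, 8016 and 7470.2 in SLC. It went from below the floor on all 6 early-stage arrays to a rise of at least 378-fold (log2 change 8.56, SE 0.11, adjusted p = 2.24e-14). Gstt2, its neighbour on chromosome 10, read 129, 131 and 129 in PGC, 516, 146 and 313 in PGCLC, 767, 1057 and 879.6 in RS, and 716, 636 and 636 in SLC (log2 rise from PGC to RS 2.78). Gstt1, which lies between Gstt3 and Gstt4, stayed at 13.9 to 86.7 units in both groups, overlapping.

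The omega pair repeated the pattern of the thioredoxin pair. Gsto2, a form with strong dehydroascorbate reductase activity, read 166, 169 and 166 in PGC, 66.5, 134 and 51.9 in PGCLC, 8599, 9946 and 9908 in RS, and 5496, 5557 and 5873 in SLC. Gsto1, the other omega transferase, read 1934, 1937 and 1812 in PGC, 1583, 1618 and 1424 in PGCLC, 118, 88.4 and 103 in RS, and 1842, 1427 and 1459.7 in SLC. So the RS arrays were the high extreme for one gene and the low extreme for the other. Gsto2 rose 56.7-fold from PGC to RS (log2 change 5.83, SE 0.26, adjusted p = 7.54e-10) and Gsto1 fell 18.5-fold (log2 change −4.21, SE 0.14, adjusted p = 3.82e-11). A second Gsto1 probe set gave a log2 difference of −2.51.

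In the mu cluster of chromosome 3, Gstm5, the form found in sperm and brain, lies at one end. It read 1636, 1607 and 1691 in PGC, 1388, 1404 and 1410.1 in PGCLC, 30888, 31031 and 28931 in RS, and 24168, 23597 and 24208 in SLC, and rose 18.4-fold (log2 change 4.20, SE 0.05, adjusted p = 1.48e-14). Gstm4 at the other end rose by 1.23, and the 5 genes between them, Gstm7, Gstm6, Gstm3, Gstm2 and Gstm1, fell, with log2 changes of −1.84, −2.16, −3.50, −2.17 and −2.24. Gstm3 read 2858, 2654 and 2401 in PGC, 719.6, 2256 and 1318 in PGCLC, 377, 221 and 151 in RS, and 199, 114 and 99.5 in SLC. The mu genes are close copies, so probe sets can share signal among them. A second Gstm7 probe set had a log2 difference of 0.19 in place of the fall.

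The promoters of Gsto2, Gsto1 and Gstm5 are shown because these genes carry the opposite changes of transferase forms. They lie at chr19:47865295-47865544, chr19:47854723-47854972 and chr3:107895604-107895853 of GRCm38.p6, all on the plus strand, 5′ to 3′. Capitals mark motif matches: the half-site TGACG of the cAMP response element in Gsto1, read on the opposite strand and 72 bases before the start, and the antioxidant response element core TGACNNNGC in Gstm5, 33 bases before the start.
Gsto2: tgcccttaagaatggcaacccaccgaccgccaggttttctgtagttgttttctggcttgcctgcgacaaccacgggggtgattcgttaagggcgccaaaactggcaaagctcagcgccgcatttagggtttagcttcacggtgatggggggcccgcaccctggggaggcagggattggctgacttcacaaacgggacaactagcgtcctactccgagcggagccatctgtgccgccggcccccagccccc
Gsto1: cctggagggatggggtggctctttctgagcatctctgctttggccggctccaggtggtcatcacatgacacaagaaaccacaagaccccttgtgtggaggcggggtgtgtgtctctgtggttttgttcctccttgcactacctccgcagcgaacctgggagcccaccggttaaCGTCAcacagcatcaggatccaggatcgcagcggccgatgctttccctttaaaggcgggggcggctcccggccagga
Gstm5: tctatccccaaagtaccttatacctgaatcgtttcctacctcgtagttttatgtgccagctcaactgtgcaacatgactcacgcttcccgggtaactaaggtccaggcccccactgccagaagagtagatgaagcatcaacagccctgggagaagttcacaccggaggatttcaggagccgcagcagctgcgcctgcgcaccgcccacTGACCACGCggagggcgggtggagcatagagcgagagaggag

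**Figure D2:**
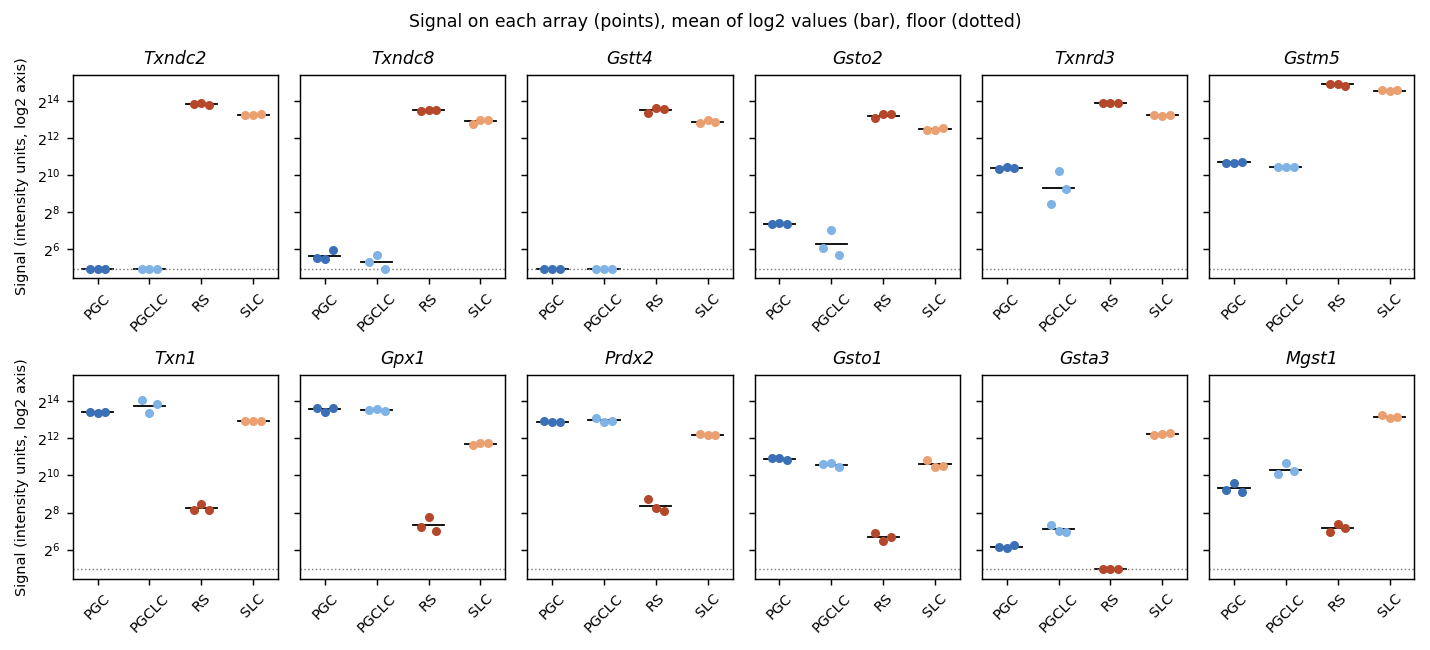
Signal in intensity units on a log axis for 12 members on the 12 arrays, each point 1 array and each bar the group mean of log2 values, with the floor dotted, grouped as PGC, PGCLC, RS and SLC. Txn1, Gpx1 and Gsto1 are low on the 3 RS arrays, and for Gsto1 the lowest other array is at 1424 units. Txndc8 and Gsto2 are at 5496 units or more on all RS and SLC arrays.

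The next comparison set the spermatid-like cells made in culture beside the round spermatids of the testis. General members such as Txn1, Gpx1 and Prdx2 were higher in SLC, along with Gsta3, Mgst1 and secreted or endoplasmic reticulum peroxidases, while the germ-line forms were within 2-fold. This comparison shares its RS arrays with the one above, so values of both are given side by side and not counted together. Of 49 members 22 rose (44.9%, against 24.0% of all genes) and 1 fell (2.04%, against 3.44%), with a median log2 change of 0.53 against −0.15 over all genes. With each array's log2 values centred on their own median, the median of all genes went from −0.15 to −0.77, 14 members were called lower, and the share of member calls that were higher went from 95.7% to 57.6% (83.3% with quantile normalization). Over all genes that share went from 87.5% to 29.4% (44.4% with quantile normalization). Gpx6, Gstz1, Gstt3 and Gstm3 were called lower under both scalings. Median centring put them at −1.63, −1.51, −1.47 and −1.45, and quantile normalization at −1.15, −1.19, −1.09 and −1.79. Of these only Gpx6 was called in the main fit, where Gstz1, Gstt3 and Gstm3 were at −0.88, −0.84 and −0.82. Connective tissue markers were called higher in SLC in 11 of 11, Leydig markers in 4 of 5 tested, with Cyp11a1 below the floor in RS, and Sertoli markers in 6 of 8 tested. The part of such cells in the rises below was not tested.

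Gsta3, an alpha-class transferase, read 71.0, 68.9 and 74.9 in PGC, 160.4, 128 and 124 in PGCLC, 4.02, 10.3 and 2.48 in RS, and 4600.1, 4724 and 4994 in SLC. The highest of the 9 other arrays was at 160.4 units, far below the SLC arrays, and the rise over RS was at least 155-fold (log2 change 7.28, SE 0.15, adjusted p = 2.22e-11). A second, dimmer probe set gave a log2 difference of 2.95.

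Mgst1, the main microsomal transferase, read 587, 769 and 559.9 in PGC, 1079, 1625 and 1189 in PGCLC, 122, 166 and 145 in RS, and 9967, 8586 and 9058 in SLC, and was 64.2-fold higher in SLC than in RS (log2 change 6.00, SE 0.18, adjusted p = 2.5e-10). Gpx3, the secreted plasma peroxidase, read 252, 194 and 306 in PGC, 858, 395 and 541 in PGCLC, 21.9, 22.2 and 11.6 in RS, and 4285, 3616 and 3710.1 in SLC. It was at least 126-fold higher in SLC (log2 change 6.97, SE 0.25, adjusted p = 9.57e-10). For both genes the SLC arrays lay above all 9 others.

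Gpx7, a peroxidase of the endoplasmic reticulum, read 185, 250.4 and 242 in PGC, 605, 352 and 601 in PGCLC, 18.1, 17.4 and 6.23 in RS, and 1125, 1101 and 1243 in SLC, at least 37.6-fold above RS (log2 change 5.23, SE 0.21, adjusted p = 2.64e-09). Gpx8, the other peroxidase of that compartment, read 195, 123 and 215 in PGC, 660.2, 465 and 534 in PGCLC, 111, 154 and 53.5 in RS, and 1917, 1754 and 1797 in SLC. It was 18.8-fold higher in SLC (log2 change 4.23, SE 0.34, adjusted p = 7.02e-07). These 5 genes, from Gsta3 to Gpx8, had SLC values above those of every other group.

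The housekeeping members described above were higher in SLC than in RS by 4.70 on the log2 scale for Txn1, 4.38 for Gpx1, 4.25 for Txndc5, 3.94 for Gsto1, 3.83 for Prdx2 and 3.54 for Prdx3. Gstp1, the pi transferase, was higher by 4.61, with RS arrays at 272 to 308 units and SLC arrays at 7026 to 7186. The other rises were those of Txndc15, Gsta4, Gstm2, Gstk1, Gstt1, Txndc17, Gstm1, Txnrd1, Gss and Txndc11, between 1.08 and 2.99. The rises of Gss and Txndc11 fell short of the call under median centring and under quantile normalization, where Gss was at 0.80 and 0.84. That of Txnrd1 fell short under median centring. With the mean of all probe sets Txndc11 and Txnrd1 were not called. The second Txndc11 set gave a log2 difference of 0.048, and the other Txnrd1 sets gave −0.029 and 0.40. Txndc11 also lost its call with log2(value + 16) and without RS replicate 1. Of the synthesis enzymes Gss alone was called, at 1.43 (SE 0.17, adjusted p = 1.93e-05). Gclc and Gsr were higher by 0.47 and 0.57, and under median centring they were at −0.16 and −0.057. Gclm was lower by 0.61, and with the mean of its probe sets it was at 0.36.

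The germ-line members were close to their level in testis. Txndc2, Txndc8, Gstt4, Gsto2, Gstm5, Txnrd3 and Gpx4 differed from RS by −0.57, −0.59, −0.63, −0.75, −0.34, −0.65 and −0.39 on the log2 scale, none past 2-fold, although every SLC array of these 7 was below every RS array. Under median centring Txndc2, Txndc8, Gstt4, Gsto2, Txnrd3 and Gpx4 were called lower. Spermatid markers had the same sign, at a median of −0.53. Gpx6 was called lower at 2-fold (log2 change −1.0, SE 0.40, adjusted p = 0.0456), and the call was lost when any single RS or SLC array was left out, at adjusted p between 0.0608 and 0.121. In a fit of the RS and SLC arrays alone the Gpx6 call was kept. All 23 member calls were kept there, and Mgst2 was gained. Prdx4 differed by −0.36, and with quantile normalization by 0.046.

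The promoters of Gsta3 and Mgst1, the transferases with the largest rises in SLC, lie at chr1:21240335-21240584 and chr6:138140277-138140526 of GRCm38.p6, both on the plus strand, 5′ to 3′. Each holds 1 match to the antioxidant response element core TGACNNNGC, in capitals, 112 bases before the start in Gsta3 and, on the opposite strand, 47 bases before it in Mgst1.
Gsta3: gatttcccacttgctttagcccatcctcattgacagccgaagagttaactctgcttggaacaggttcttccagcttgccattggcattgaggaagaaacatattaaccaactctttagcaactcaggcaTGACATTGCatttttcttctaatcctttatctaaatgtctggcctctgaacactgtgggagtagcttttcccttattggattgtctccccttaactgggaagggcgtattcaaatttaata
Mgst1: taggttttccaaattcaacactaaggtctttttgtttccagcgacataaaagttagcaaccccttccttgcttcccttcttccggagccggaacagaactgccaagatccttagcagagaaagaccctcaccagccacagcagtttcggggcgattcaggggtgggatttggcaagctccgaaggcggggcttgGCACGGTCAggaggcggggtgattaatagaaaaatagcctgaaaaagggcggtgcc

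**Figure D3:**
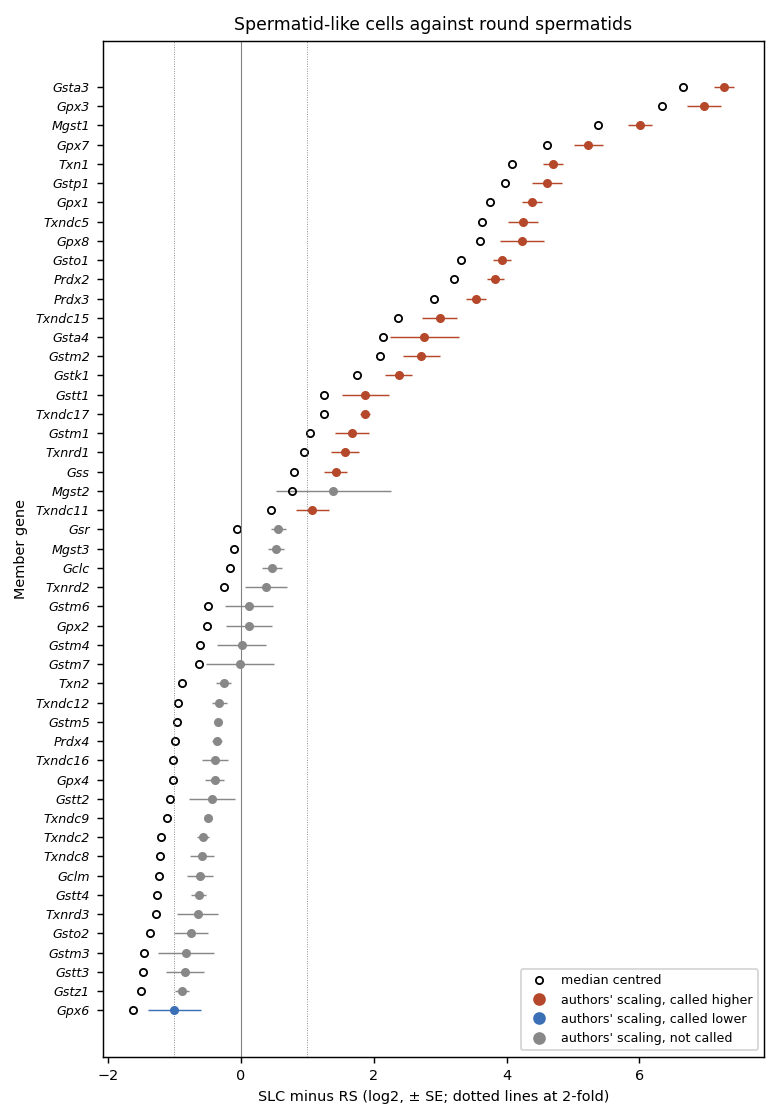
Log2 change from RS to SLC for the 49 tested members with its standard error, ordered by size, with called members coloured and open circles for the values under median centring. The 22 rises reach 7.28 for Gsta3, and the germ-line members Txndc2, Txndc8, Gstt4, Gsto2, Gstm5 and Txnrd3 lie between −0.34 and −0.75.

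From PGCLC to SLC, the 2 groups made in culture, 15 members rose (30.6%, against 29.9% of all genes) and 10 fell (20.4%, against 27.4%), with 57.2% of all genes called in either direction, so the share that rose was near that of all genes. Under median centring the share of member calls that were higher went from 60.0% to 48.1%. The largest rises were those of Txndc2 (log2 change 8.32, at least 319-fold, adjusted p = 1.52e-14), Gstt4 (7.93), Txndc8 (7.58) and Gsto2 (6.19), each with all SLC arrays above all PGCLC arrays in the values given above. Gsta3 rose by 5.13, Gstm5 by 4.10, Txnrd3 by 3.92 and Gpx6 by 3.87. Connective tissue markers rose in 10 of 11, from sums of 16926 to 17419 in PGCLC to 95755 to 97123 in SLC. Leydig markers rose in 3 and fell in 1 of 5 tested, while erythroid markers fell in 3 and rose in 1 of 4 tested. Spermatocyte markers rose in 5 of 8 tested. The part of such cells in the changes was not tested. Gpx4 was higher by 0.94 (SE 0.15, adjusted p = 0.0001), short of 2-fold.

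The largest fall was that of Gstm3, a mu transferase, by 3.29 (9.81-fold, SE 0.42, adjusted p = 1.76e-05), followed by Gpx2 by 2.74. Gsta4, which detoxifies the lipid aldehyde hydroxynonenal, read 9140.1, 1736 and 7021 in PGCLC and 1038, 1018 and 1087 in SLC, a fall of 2.20 (SE 0.52, adjusted p = 0.00218). Its PGCLC arrays were widely spread, with replicate 2 far below the other 2. Gstm7 read 137, 734 and 448 in PGCLC and 87.9, 86.2 and 106 in SLC, a fall of 1.94 (SE 0.51, adjusted p = 0.00453) that its second probe set, at 0.0047, did not show. Gpx1 fell by 1.80, Gclm by 1.5 and Gsr by 1.47. Gclc was lower by 0.96 (SE 0.15, adjusted p = 8.78e-05), and was past 2-fold with 3 other settings and without PGCLC replicate 1 or 3.

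The interaction tested whether the change from PGCLC to SLC differed from that from PGC to RS. It was positive, meaning a higher change in culture, and called in 20 of 49 members (40.8%, against 21.1% of all genes), and negative in 1 (2.04%, against 11.2%), with a median of 0.82 against −0.04. Connective tissue markers were positive in 10 of 11 (median 3.92) and Leydig markers in 4 of 5 tested (median 4.49), and their part in these calls was not tested. The share of member calls that were positive went from 95.2% to 75% under median centring. All 4 groups enter this contrast, so its calls repeat the values of the other comparisons. The largest were Gsta3 at 6.35 (SE 0.21, adjusted p = 3.76e-09), Gpx3 at 5.77 (SE 0.36, adjusted p = 2.58e-07) and Mgst1 at 4.99 (SE 0.25, adjusted p = 5.29e-08), each of them lower in RS than in PGC and higher in SLC than in PGCLC. Gpx1, Txn1, Gsto1, Txndc5, Gpx7 and Prdx2 followed at 3.74 to 4.43. Gsta3, Gpx3 and Gpx7 lay below the floor in RS and in no other group. Setting RS to the floor makes their interaction smaller, so their values are lower bounds. A second, dim Gsta3 probe set had a log2 difference of only −0.10 from PGC to RS. Gstt2 was the negative one, at −1.58 (SE 0.49, adjusted p = 0.0195), with a rise of 1.21 in culture against 2.78 between the animal-derived stages.

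None of the germ-line members was called in this test. Gstm5 was at −0.10 (adjusted p = 0.262), Txndc8 at −0.26 (0.432), Gsto2 at 0.36 (0.441) and Txnrd3 at 0.43 (0.433), as adjusted p-values in brackets, with signs turned for Gstm5 (0.18) and Txndc8 (0.46) under quantile normalization. Gpx4 was at −0.69 (SE 0.21, adjusted p = 0.0172), under 2-fold, and was called negative under median centring at −1.07. Gpx6 was at −1.43 (SE 0.56, adjusted p = 0.0548) and was called negative under median centring, quantile normalization, log2(value + 16) and the stricter filter, and without PGC replicate 2 or PGCLC replicate 2. Txndc2 and Gstt4 lay below the floor on all PGC and PGCLC arrays, so their interaction only restates the difference between SLC and RS. Gstt4 was at −0.63, and was called negative under median centring at −1.01.

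**Figure D4:**
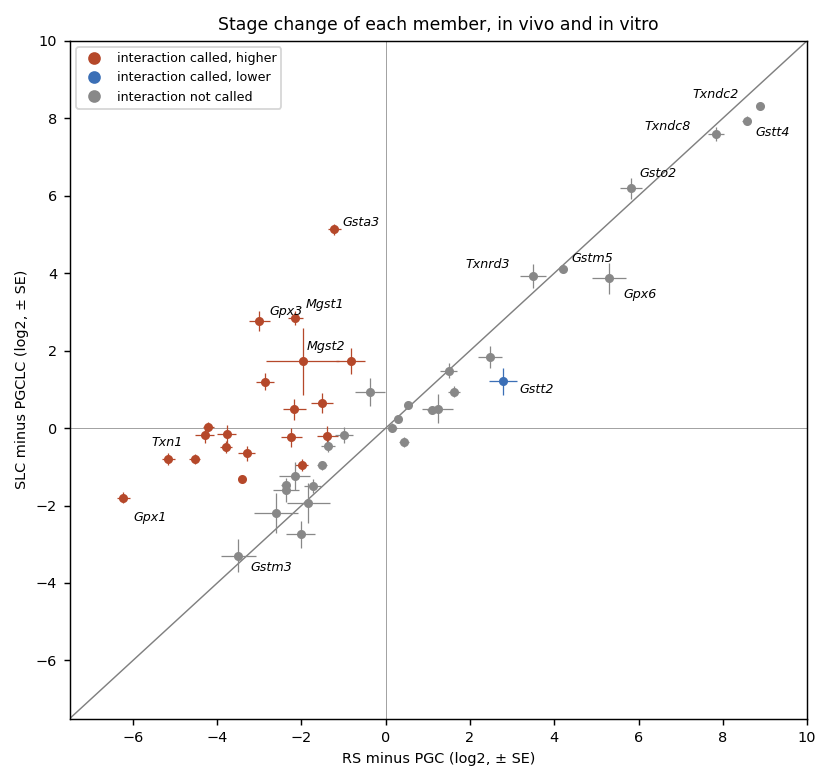
Log2 change from PGCLC to SLC against log2 change from PGC to RS for the 49 tested members, with standard errors, and a diagonal where both changes are equal. Txndc2, Gstt4, Txndc8, Gsto2 and Gstm5 lie near the diagonal, and Gsta3, Mgst1 and Gpx3 lie above it, at negative values on the x axis and positive values on the y axis.

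The last comparison set PGCLC beside PGC. It gave the fewest calls: 6 members rose (12.2%, against 10.4% of all genes) and 2 fell (4.08%, against 1.62%), and the median was 0 for members and 0.0052 for all genes. The rises were Gsta4 by 2.35 (SE 0.52, adjusted p = 0.00877), Gpx8 by 1.67 (SE 0.34, adjusted p = 0.00609), Gpx3 by 1.21 (SE 0.25, adjusted p = 0.00706), Gpx7 by 1.17 (SE 0.21, adjusted p = 0.00414), Gstt2 by 1.14 and Mgst1 by 1.02. The falls were Gsto2 by 1.11 (SE 0.26, adjusted p = 0.0112) and Txnrd3 by 1.08 (SE 0.31, adjusted p = 0.0239). Of these genes only Gsta4 had its PGC values not yet given: 935, 978 and 915, below all PGCLC arrays.

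These calls rested on the shared variance of all 12 arrays. In a fit of the 6 arrays compared, 0 members were called, while 11 were higher and 9 lower at an unadjusted p below 0.05. Under median centring 2 members were called higher and 6 lower, so that the share of calls that were higher went from 75% to 25%. Gpx8 and Gsta4 were still called higher, and Gsto2 and Txnrd3 lower, under both median centring and quantile normalization. The Txnrd3 call was lost without any single PGC array and without PGCLC replicate 1 or 3, and that of Gsto2 without PGCLC replicate 1 or 3 and with log2(value + 16). Gstt2 lost its call under both scalings, without the filter on dim genes, without any single PGC array and without PGCLC replicate 1 or 3. Gpx3 and Gpx7 lost theirs under both scalings, and Gpx3 also without PGCLC replicate 1. Mgst1 lost its call under median centring, with log2(value + 16), and without PGC replicate 1 or 3 or PGCLC replicate 2. Connective tissue markers were called higher in PGCLC in 5 of 11, summing to between 16926 and 17419 units against 6180 to 7017 in PGC, and macrophage markers in 4 of 6 tested, at 2057, 692 and 1495 in replicates 1, 2 and 3 against 264 to 276. Their part in the rises was not tested.

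The 3 PGCLC arrays had a common order for many members. Replicate 2 was nearest to the PGC mean in 36 of 49 members (73.5%, against 61.0% of all genes), and replicate 3 lay between the other 2 in 32 (65.3%, against 62.2%). The median absolute log2 difference of the members from PGC was 0.65 in replicate 1, 0.23 in replicate 2 and 0.52 in replicate 3. Over all genes it was 0.55, 0.23 and 0.43, in the same order. Mgst2, a microsomal transferase, was the most spread, at 35.6, 996 and 425 units against 1179.8, 1266 and 1222 in PGC, and it was not called (log2 difference −2.31, SE 0.86, adjusted p = 0.0636). Without PGCLC replicate 2, 10 members were called higher and 6 lower, and without PGCLC replicate 1 there were 4 and 0. PGC markers had the same order, summing to 29860, 60590 and 47820 units in replicates 1, 2 and 3, as had erythroid markers, at 3818, 16187 and 10098. The part of cell make-up in this spread was not tested.

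**Figure D5:**
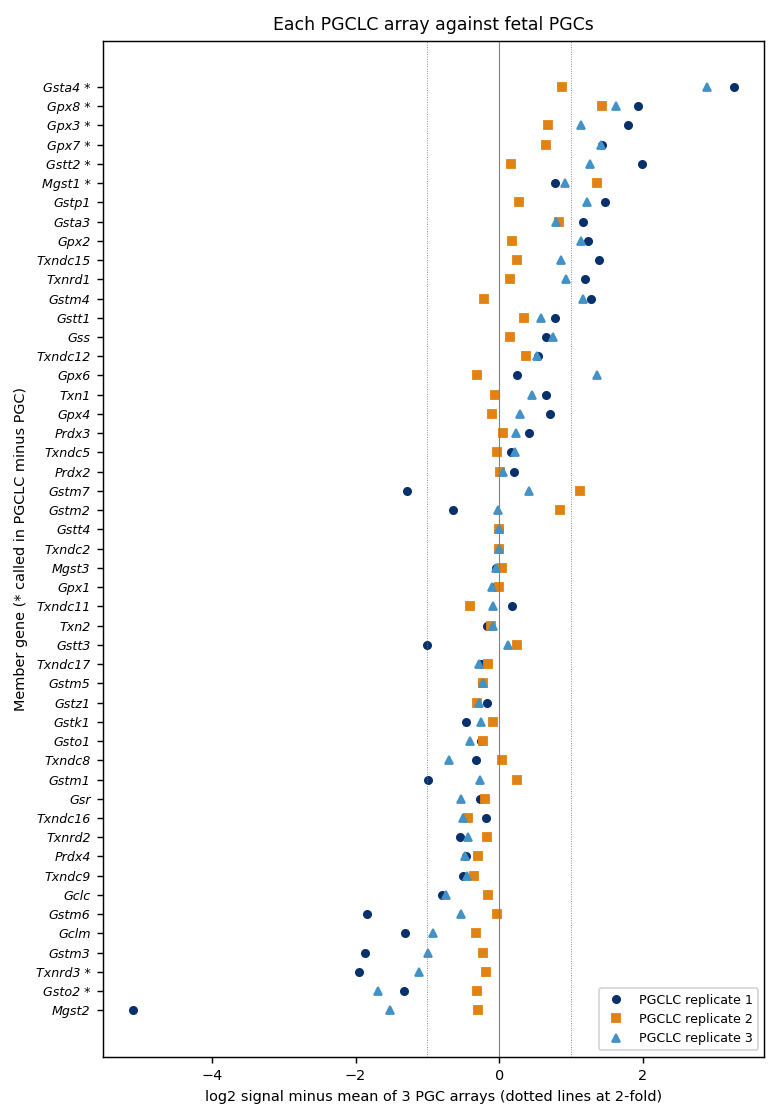
Log2 signal of each PGCLC array minus the PGC mean for the members, with 1 colour for each replicate. Replicate 2 lies nearest to 0 for 36 of 49 members, and replicates 1 and 3 spread further on both sides.

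Several members had further probe sets above the filter level, which were not used to choose or test the values above. For called members these had the same sign in 21 of 24 cases from PGC to RS, 12 of 15 from RS to SLC, 11 of 12 from PGCLC to SLC and 2 of 2 from PGC to PGCLC. The opposite signs belonged to Txn1, Txndc15, Gstm7 and Txnrd1. Those of Txn1, Txndc15 and Gstm7 were dim, as in Txndc15, whose second set had group means of 64.7 to 121 units. The Txnrd1 set was brighter, with group means of 162 to 369 units, and had a log2 difference of −0.029 from RS to SLC.

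The rest of the redox pathway was read from 5 lists. They are to be set beside the shares and medians of all genes given above for each comparison. Of all genes 31.8% rose and 37.7% fell from PGC to RS, and 24.0% rose and 3.44% fell from RS to SLC. From PGC to PGCLC 10.4% rose and 1.62% fell. Of 24 tested genes of the NRF2 pathway and NADPH supply, which drive and fuel glutathione and thioredoxin, 16 fell and 6 rose from PGC to RS, at a median log2 change of −1.52. Osgin1, an oxidative stress response gene, rose by 6.81 and transketolase (Tkt), a pentose phosphate enzyme, fell by 5.62. From RS to SLC 17 rose and 1, G6pd2, fell, at a median of 2.39, led by Ugdh at 5.17 and Cbr3 at 4.59, and from PGC to PGCLC 5 rose and 0 fell. Nfe2l2, which encodes NRF2 itself, had group means of 1759 in PGC, 2357 in PGCLC, 607 in RS and 1727 in SLC, and fell by 1.54 to RS. It was 1.52 higher in SLC than in RS (adjusted p = 5.22e-05).

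Of 23 tested glutaredoxin and thioredoxin-like genes 13 fell and 4 rose from PGC to RS (median −1.27), and 9 rose and 0 fell from RS to SLC (median 0.47). Nme8, a sperm thioredoxin, rose by 7.52 and Glrx, the cytosolic glutaredoxin, fell by 5.69 to below the floor, and Glrx was then 4.87 higher in SLC. Of 15 superoxide, catalase and repair genes 3 rose and 7 fell from PGC to RS (median −0.60), and 4 rose and 0 fell from RS to SLC (median 0.33). From RS to SLC 24.0% of all genes rose and 3.44% fell. Catalase (Cat) had means of 1397 in PGC, 2495 in PGCLC, 128 in RS and 1640 in SLC, and Sod1, the cytosolic superoxide dismutase, differed by less than 2-fold in each comparison.

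Of 19 tested glutathione turnover genes 8 rose and 4 fell from PGC to RS (median 0.30), where 31.8% of all genes rose and 37.7% fell, and the largest rises were those of the oxoprolinase Oplah at 4.61 and the glyoxalase Hagh at 3.43. From RS to SLC 5 of them rose and 1 fell (median 0.07), and from PGC to PGCLC 3 rose, with the glutathione-degrading Chac1 at 2.74 and the cysteine-forming Cth at 2.45. Of 16 genes for selenoproteins and their synthesis, on which Gpx1 to Gpx4 and the thioredoxin reductases depend, 5 rose and 5 fell from PGC to RS (median −0.47), and 5 rose and 1 fell from RS to SLC (median 0.32). For both lists, 24.0% of all genes rose and 3.44% fell from RS to SLC. Selenop, the selenium carrier, had means of 2957 in PGC, 2498 in PGCLC, 396 in RS and 5490 in SLC.

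Promoters of 48 of the 52 members were found by Entrez identifier in the RefSeq table, all but those of Gsr, Gstt2, Gsta4 and Gclc. Over the 250 bases and both strands, the antioxidant response element core TGACNNNGC occurred in 5 of 48 (10.4%), Gclm, Gsta3, Gstm5, Mgst1 and Txndc11. It occurred in 10.1% of all 27025 promoters and 11.7% of those of genes on the array. The half-site TGACG was found in 11 of 48 (22.9%, against 17.8% of all promoters and 23.2% of those of genes on the array). The full cAMP response element TGACGTCA, which contains it, was found in 0 of 48 (1.60% of all and 2.25% of those of genes on the array). The median number of CG dinucleotides was 8 in the 12 promoters of members that rose from PGC to RS and 11 in the 25 of members that fell, against 6 over all promoters and 13 over those of genes on the array. A match in these letters is a description of the sequence.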

How the data were processed

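Total RNA of the 12 samples was extracted with TRIZOL and labelled with biotin on Affymetrix 3' expression arrays, per the labels' protocols. Deposited values are intensities on a linear scale, 1 per probe set, made by the authors with MAS5 per the submitters' processing notes, whose version and settings are not given in the sources used here. The number of arrays limits the precision.

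Groups came from the sample titles. Probe sets were named through GEO's platform annotation, checked by Entrez identifier: 932 with several symbols, 9160 with none and 64 controls were left out, among them 6 that share a member's name with another gene, so Prdx1 and Gsta1 have no values here. Each gene was read from its probe set with the highest mean. Values below 30.7 units, the 25th percentile, were set to it before log2, and genes above 92.0 units, the median, on at least 3 arrays were tested. A fold is written "at least" where arrays of the lower group lay at that floor. All 12 arrays entered 1 limma fit (limma 3.58.1, R 4.3.3) with 4 group means, eBayes with an intensity trend and Benjamini-Hochberg adjustment over 14197 genes. The fit was tested on simulated data, with 200 genes moved in each draw and results averaged over 5 draws. For PGCLC minus PGC, 79% of genes moved by 1.5 on the log2 scale were recovered, and 91.6% of those moved by 2. There were 61 false calls per draw. For SLC minus RS the shares were 77.4% and 87.6%, with 15.4 false calls.

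Genes were named by a rule: in each comparison of 2 groups the 4 largest called rises and falls without overlap, in the interaction the 3 largest each way, and Gclc, Gclm, Gss, Gsr, Gpx4, Gpx5, Txndc2, Txndc8, Prdx4, Txnrd3 and Gstm5. Each pathway list adds its 2 genes with the largest change. Gsto1, Prdx3, Gstp1, Mgst2, Txn2, Nfe2l2, Cat, Sod1 and any other gene were chosen after their values were seen. The members and lists were chosen with earlier results of these data known. Sequences are RefSeq's for GRCm38.p6.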

Additional observations from a re-analysis of the deposited data

Results flagged for a closer look

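The change from PGCLC to SLC differed from that from PGC to RS in 21 of 49 members, by limma's interaction term, which called 32.3% of all genes in either direction. Connective tissue markers were positive in 10 of 11 and Leydig markers in 4 of 5 tested, and their part was not tested. The difference was 6.35 on the log2 scale for Gsta3, 5.77 for Gpx3, 4.99 for Mgst1, 4.43 for Gpx1, 4.36 for Txn1, 4.23 for Gsto1 and 4.13 for Txndc5. It was 4.06 for Gpx7, 3.74 for Prdx2, 3.62 for Gstp1 and 3.30 for Prdx3. It was 2.65 for Gstm2, 2.64 for Gstk1, 2.57 for Gpx8, 2.16 for Txndc15, 2.10 for Txndc17 and 2.01 for Gstm1. Smaller differences were those of Txndc11 at 1.18 and Gclc at 1.04, neither of which kept its call under median centring or quantile normalization. Mgst2, at 3.70, rested on PGCLC arrays spread from 35.6 to 996 units, and its call was lost without PGC replicate 2, without RS replicate 1 or 2, without any single SLC array and without the filter on dim genes. Gstt2 was the member with the opposite sign, at −1.58.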

How the results depend on the processing

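Replicate numbers showed no pairing of arrays between groups: deviations of same-numbered arrays correlated at −0.017 to 0.13. With the replicate block, members called lower from RS to SLC went from 1 to 0 (Gpx6), and the other member counts stayed within 1.5 times. The cause of the changes below was not tested.

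Median centring gave 2 members higher and 6 lower in PGCLC minus PGC, 14 lower in SLC minus RS and 6 negative in the interaction, and over all genes 710, 5724 and 3477 lower. Quantile normalization gave 4 members lower in SLC minus RS and 2 negative in the interaction, with 977 genes higher and 419 lower in PGCLC minus PGC, 3224 lower in SLC minus RS and 2439 negative. With log2(value + 16) and without the filter on dim genes, 0 members were lower in SLC minus RS and 2 negative in the interaction; the latter setting gave 151 genes lower in PGCLC minus PGC. The stricter filter, which tests fewer genes, gave 6 members lower in SLC minus PGCLC and 2 negative in the interaction, with 860 genes higher in PGCLC minus PGC, 254 lower in SLC minus RS and 969 negative. In PGCLC minus PGC the fit of the 6 arrays compared gave 0 members higher and 0 lower, and 170 and 7 genes.

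Leaving out 1 array at a time gave, in PGCLC minus PGC, 4 (without PGC replicate 3) to 10 (without PGCLC replicate 2) members higher, 0 (without PGCLC replicate 1) to 6 (without PGCLC replicate 2) lower, 981 to 2138 genes higher and 59 to 762 lower. Members lower in SLC minus RS were 0 to 1, and negative in the interaction 1 to 3, the 3 without PGCLC replicate 2.

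Signs turned for small differences. In SLC minus RS, Gclc was at −0.020 (quantile) and −0.16 (median centring), Gsr at −0.057 (median centring), Gclm at 0.36 (mean of probe sets) and Prdx4 at 0.046 (quantile). In SLC minus PGCLC, Prdx4 was at −0.070 (mean of probe sets). In the interaction, Gclm was at −0.12 (quantile) and −0.14 (median centring), Prdx4 at −0.32 (median centring), −0.074 (mean of probe sets) and −0.0023 (without RS replicate 1) to 0.12 (without PGCLC replicate 2), Txndc2 at 0.019 and Txndc8 at 0.0027 (log2(value + 16)), Txndc8 at 0.46 and Gstm5 at 0.18 (quantile).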
